A study of Mus musculus with 10 samples.

Results

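The regions described here are 2966 OTX2 peaks of mouse definitive endoderm (DE) that lie away from the ends of protein-coding genes. They were already present in the epiblast stem cells (EpiSCs) from which the endoderm was made. They were chosen by measured positions: the DE peak overlaps an EpiSC peak by at least 1 bp, its centre is more than 1 kb from every end of a protein-coding gene, and it lies on chromosomes 1 to 19 or X. They are called kept distal peaks below and make up 2966 of the 42711 DE peaks. They overlap 2955 of the 6319 EpiSC peaks. Both peak sets come from CUT&RUN, in which an antibody directs a nuclease to its target in permeabilised cells and the released DNA is sequenced. The antibody recognised HA on OTX2 in the tagged line 7H OTX2-dTAG-EGFP, and a control IgG was used beside it. Parental controls came from the line 5.8. Both lines have a BL6/129 hybrid background, and whether each is 1 clone is not given in the sources used here.

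The series holds 10 samples of 500000 cells each. Tagged EpiSCs gave 2 HA and 3 IgG samples, tagged DE gave 2 HA samples and 1 IgG sample, and parental DE gave 1 HA sample and 1 IgG sample. EpiSCs grew in N2B27 medium to which FGF2 (12.5 ng/ml), NVP (175 nM) and Activin A (20 ng/ml) were added. For DE, cells in CDM medium first received CHIR (3 µM) with Activin A (40 ng/ml) over 16 h and then LDN (100 nM) with Activin A (100 ng/ml) over 24 h, before sorting of live cells. The HA samples of each state were deposited as 1 list of intervals, read as pooled, without height, score or read depth. No value below therefore has a replicate spread, no test between the states was possible, and peak width is the only measure of a peak. A site bound in part of the cells and a site bound weakly in all of them cannot be told apart, and peak lists hold no expression with which to check the labelled cell types.

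OTX2 is a homeodomain transcription factor of the epiblast, the anterior endoderm and the forebrain. Homeodomains of its class prefer the letters TAATCC, which read GGATTA on the other strand. Regulatory elements away from gene ends, called enhancers, carry much of the cell-type-specific binding of such factors, and a site bound in a precursor and again in its descendant has the factor present on both sides of the transition.

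Sequence could be shown where a kept distal peak lies on a start window, the 300 bases from 250 before to 50 after a transcript start in the RefSeq table (build GRCm38.p6, the assembly behind mm10). Such peaks exist because a gene can have an internal start far from its ends and because starts of long noncoding RNA genes were not used in the rule. There were 246 of them among the 2888 kept distal peaks on chromosomes with windows. In 25 of the 246 (10.2%), the stretch under the peak held TAATCC, and in 14 (5.69%) it held CCTAAT, the same letters in reversed order. Of the 25 with TAATCC, 5 are printed to show the letters under such DE peaks: the 3 protein-coding windows with the longest covered stretch, the window with 2 matches and the window of a gene with a mark in the authors' deposited table. This choice was made after the values were seen. Capitals mark TAATCC or GGATTA, and each line is the covered stretch on the strand of its gene, 5′ to 3′.
Osbpl2: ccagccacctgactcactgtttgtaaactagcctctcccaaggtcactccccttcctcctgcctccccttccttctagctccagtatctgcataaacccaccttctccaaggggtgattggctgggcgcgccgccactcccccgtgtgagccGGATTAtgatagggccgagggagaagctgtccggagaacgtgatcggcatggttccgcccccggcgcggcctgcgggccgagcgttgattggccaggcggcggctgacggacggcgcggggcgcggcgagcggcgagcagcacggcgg
Tspan9: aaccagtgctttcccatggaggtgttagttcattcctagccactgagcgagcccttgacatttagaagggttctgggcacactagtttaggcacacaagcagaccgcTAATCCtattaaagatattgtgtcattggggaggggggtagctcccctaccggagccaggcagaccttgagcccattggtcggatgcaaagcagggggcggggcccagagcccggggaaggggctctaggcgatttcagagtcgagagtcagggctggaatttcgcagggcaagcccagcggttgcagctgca
Jmjd1c: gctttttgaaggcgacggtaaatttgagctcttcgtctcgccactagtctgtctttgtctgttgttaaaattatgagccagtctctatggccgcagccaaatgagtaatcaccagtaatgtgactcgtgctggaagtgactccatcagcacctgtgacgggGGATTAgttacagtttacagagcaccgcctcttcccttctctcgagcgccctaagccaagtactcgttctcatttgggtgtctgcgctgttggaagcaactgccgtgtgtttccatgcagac
Crnde: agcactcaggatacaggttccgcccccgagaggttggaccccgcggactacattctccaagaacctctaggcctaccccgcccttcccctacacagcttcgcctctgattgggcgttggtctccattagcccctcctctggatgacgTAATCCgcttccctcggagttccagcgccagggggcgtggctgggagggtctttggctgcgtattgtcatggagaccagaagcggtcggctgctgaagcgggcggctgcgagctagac
1700052K11Rik: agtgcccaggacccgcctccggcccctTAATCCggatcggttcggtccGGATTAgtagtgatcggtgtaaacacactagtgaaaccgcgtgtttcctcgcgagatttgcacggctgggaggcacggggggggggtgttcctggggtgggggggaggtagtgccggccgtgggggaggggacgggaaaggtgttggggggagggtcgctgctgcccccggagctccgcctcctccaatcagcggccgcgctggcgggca

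The Osbpl2 stretch is chr2:180119056-180119355 (plus strand), an internal start of a lipid-transfer protein gene 2870 bp from the nearest protein-coding gene end. Its peak spanned 345 bp in DE against 264 bp in EpiSC, and the match lay 23 bp from the DE peak's centre. The Tspan9 stretch is chr6:128035013-128035312 (minus strand), inside a tetraspanin gene and 73815 bp from a gene end, with widths of 407 bp in DE and 202 bp in EpiSC. Its match was 8 bp from the centre. The Jmjd1c stretch is chr10:67185517-67185799 (plus strand), inside a gene of the JmjC histone demethylase family, 70664 bp from a gene end, with widths of 291 and 134 bp. The Crnde stretch is chr8:92356071-92356335 (minus strand), at the start of a long noncoding RNA gene next to Irx5. That peak measured 309 bp in DE against 86 bp in EpiSC, and its match lay 5 bp from the centre. The stretch of the noncoding gene 1700052K11Rik, chr11:105181384-105181641 (minus strand), held the letters once on each strand, at bases 28 to 33 and 49 to 54, of which the first lies outside the EpiSC peak and the second inside it. Over all 26 matches in the 25 peaks, the median distance from the DE centre was 25 bp (range 2 to 154 bp), and 22 matches lay inside the EpiSC peak as well. Only stretches under the DE peak were searched, and the members overlap an EpiSC peak by rule. These values therefore do not test where the letters lie, and they were not measured for the reversed letters.

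Among whole windows on kept distal peaks, 31 of 246 held TAATCC on either strand (12.6%, 95% Wilson interval 9.02 to 17.3%), against 7.06% of all 32815 windows. The same letters in reversed order, CCTAAT, which serve as a control of equal base composition, stood in 15 of the 246 (6.10%, 3.73 to 9.82%) and in 7.16% of all windows. The share with TAATCC was 9.54% (8.11 to 11.2%) for windows on kept peaks at gene ends, 14.6% (12.1 to 17.4%) for those on DE-only distal peaks and 6.22% (5.37 to 7.21%) for those on DE-only peaks at gene ends. The control CCTAAT was raised on DE-only distal peaks too, at 9.31% (7.33 to 11.8%). That interval lies above the 7.16% of all windows and below the TAATCC interval of the same class. At gene ends, CCTAAT stood in 7.53% of windows on kept peaks and 5.399% of those on DE-only peaks. For TAATCC, the interval of the kept distal peaks lies above the value for all windows and overlaps that of the DE-only distal peaks. The octamer ATGCAAAT, the letters preferred by POU factors such as OCT4, stood in 12 of the 246 windows (4.88%, 2.81 to 8.33%), in 1.74% of all windows and in 2.10% (1.26 to 3.50%) of those on DE-only distal peaks. The GATA letters AGATAA went the other way, with 13 of 246 (5.28%, 3.11 to 8.83%) against 11.2% of all windows. For the other 11 motifs, searched on both strands like the rest, the interval of the kept distal peaks included the value for all windows. Signalling effectors among them were CAGAC of SMAD factors (52.4% against 49.6% of all windows), CTTTGAT of TCF and LEF factors (4.88% against 3.73%), GGAATG of TEAD factors (13.8% against 14.7%) and TGANTCA of AP-1 (8.13% against 7.81%). Lineage factors were TAATTA of other homeodomains (4.07% against 5.30%), TGTTTAC (4.07% against 3.65%) and TATTTAC (1.63% against 3.04%) of forkhead factors, AACAAT of SOX (7.32% against 10.7%), GGTGTGA of T-box (3.66% against 3.98%) and CCTGCTG of ZIC factors (14.2% against 10.5%). AATCCACA of FOXH1, which shares its first letters with TAATCC, stood in 0.407% against 0.856%. Windows on kept distal peaks were richer in G and C than all windows (57.9% against 53.8%), whose part in these shares was not tested.

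A kept distal peak also covered the whole hairpin of the microRNA gene Mir6349, which holds the letters UAAUCC, in capitals below. Its mature form is shown with its seed, bases 2 to 8, in capitals.
Mir6349 hairpin: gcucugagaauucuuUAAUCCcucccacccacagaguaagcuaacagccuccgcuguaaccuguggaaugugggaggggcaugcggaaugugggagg
miR-6349: uGGAAUGUgggaggggcaugcg
The hairpin is chr1:39186896-39186992 (minus strand), under a peak of 377 bp in DE and 123 bp in EpiSC, 6809 bp from the nearest protein-coding gene end. One other member reached a hairpin, that of Mir449c, with a peak of 105 bp in DE and 87 bp in EpiSC, so 2 of 2966 kept distal peaks overlapped any of the 1005 hairpins in the table, or 0.0674% (0.0185 to 0.246%), compared with 7 of 32586 DE-only distal peaks, or 0.0215% (0.0104 to 0.0443%).

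The kept distal peaks were wider in endoderm than in EpiSCs at most sites. In DE their median width was 222 bp (95% interval of the median 216 to 228 bp, range 62 to 976 bp) and 148 bp for the widest EpiSC peak each overlapped (144 to 152 bp, range 78 to 3098 bp). The DE peak was the wider one at 2203 sites (74.3%, 72.7 to 75.8%), the EpiSC peak at 743, and 20 were equal. The median ratio of DE to EpiSC width was 1.39. It was at least 2 at 747 sites (25.2%) and at most 0.5 at 159 (5.36%). Over all peaks of chromosomes 1 to 19 and X the medians were 138 bp in DE and 141 bp in EpiSC, so the excess was not shared by the lists as deposited. The narrowest peak of the DE list had 62 bp and that of the EpiSC list 78 bp, and the part of these unlike floors in the medians was not tested. Kept peaks at gene ends had a median DE width of 228 bp (223 to 234 bp), so the DE width was not particular to the distal ones. The EpiSC widths at those gene-end sites were not compared. Since width decides in part whether an overlap occurs, these widths describe the members and test nothing.

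**Figure D1:**
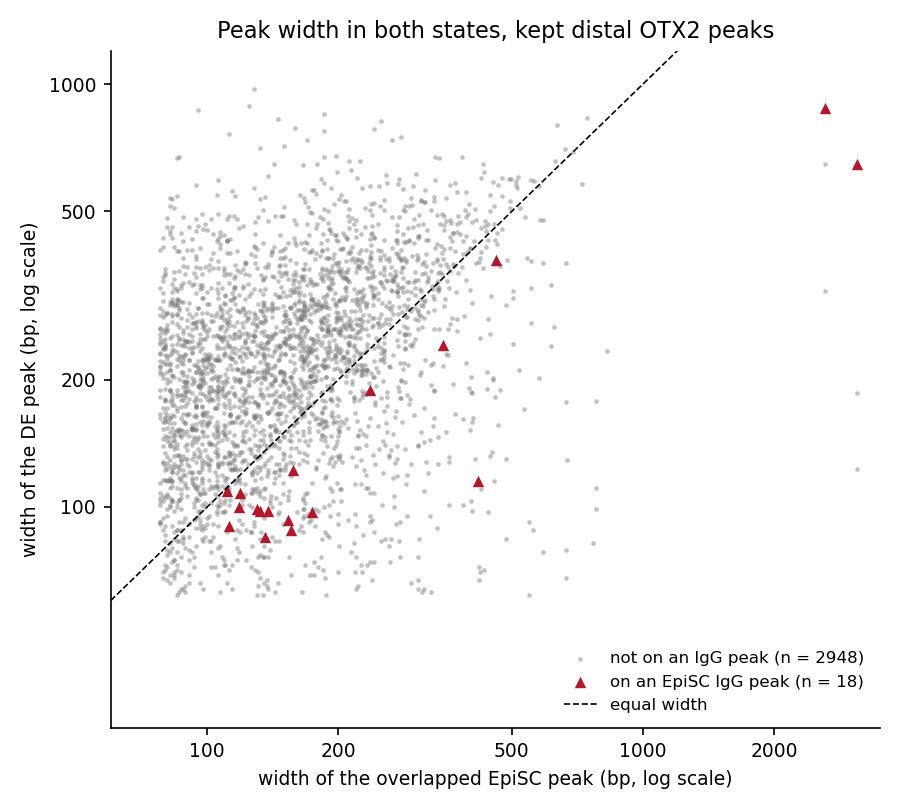
Width of each of the 2966 kept distal peaks in DE (vertical axis, bp, log scale) against the width of the EpiSC peak it overlaps (horizontal axis, bp, log scale), with the dashed line at equal width. Most points lie above the line, and the 18 peaks on an EpiSC IgG peak (triangles) lie below it.

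The plot of both widths also shows a weak relation between them. Across sites, Spearman's rho was 0.34 (2966 sites that share 2 pooled lists, given as a description). The centres of the DE and EpiSC peaks were a median of 27 bp apart, and 2231 pairs (75.2%) were within 50 bp. At 2107 sites (71.0%) the shorter peak lay wholly inside the longer one, and at 73 sites less than 50% of the shorter peak was shared. At the limit of the overlap rule, a Spry2 peak was included with 1 bp of overlap and a Gm23573 peak with 3 bp, while a DE peak touched the EpiSC peak near Jak2 with a gap of 0 bp and one near Nat10 stopped 5 bp short, and neither of these was included. At the limit of the distance rule, peaks in Cdk2ap2 and Hnrnpul1 were included at 1007 bp from a gene end, and peaks of Pdk2 at 997 bp and Limk1 at 993 bp were not.

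The widest kept distal peaks in endoderm were at Gm12249 (976 bp, against 128 bp in EpiSC), Myo1h, a class I myosin gene (890 against 125 bp), AY036118 (880 against 2622 bp, on an IgG peak) and 1700001C19Rik (869 against 95 bp). The last had the highest ratio of all members, 9.15. In EpiSC the widest were 2 intervals of 3098 and 2622 bp on chromosome 17 named for Gm26917, Gm42418 and AY036118, a locus known to hold a copy of the ribosomal RNA precursor. There 6 DE peaks of 123 to 880 bp lay inside the 2 EpiSC intervals, the largest number of neighbouring kept distal peaks found. Next came the small nuclear RNA gene Rnu5g, with 827 bp in EpiSC against 234 bp in DE. It was followed by the small nuclear RNA gene Gm22068 inside the protein-coding gene Tex14, where 1 EpiSC peak of 781 bp held 3 DE peaks of 99 to 178 bp. The 10 members of greatest EpiSC width all lay at these 3 loci, on chromosomes 17, 9 and 11.

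Kept distal peaks lay closer to the ends of protein-coding genes than new distal endoderm peaks. Their median distance to a protein-coding gene end was 17094 bp (15824 to 18676 bp), against 29128.5 bp (28557 to 29854 bp) for the 32586 DE-only distal peaks and 19552 bp (17524 to 22310 bp) for the 1179 EpiSC-only distal peaks. Inside a protein-coding gene were 1411 (47.6%, 45.8 to 49.4%), close to the 48.4% of DE-only distal peaks (47.8 to 48.9%) and above the 39.3% of EpiSC-only distal peaks (36.5 to 42.1%). A further 276 (9.31%) lay only in a gene of another type and 1279 (43.1%) in no gene. The gene table gives gene bodies and no exons, so exonic and intronic positions were not separated. A RefSeq transcript start lay within 1 kb of 342 of 2888 kept distal peaks (11.8%, 10.7 to 13.1%), compared with 4.30% of DE-only distal peaks (4.08 to 4.53%) and 5.22% of EpiSC-only distal peaks (4.07 to 6.66%).

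**Figure D2:**
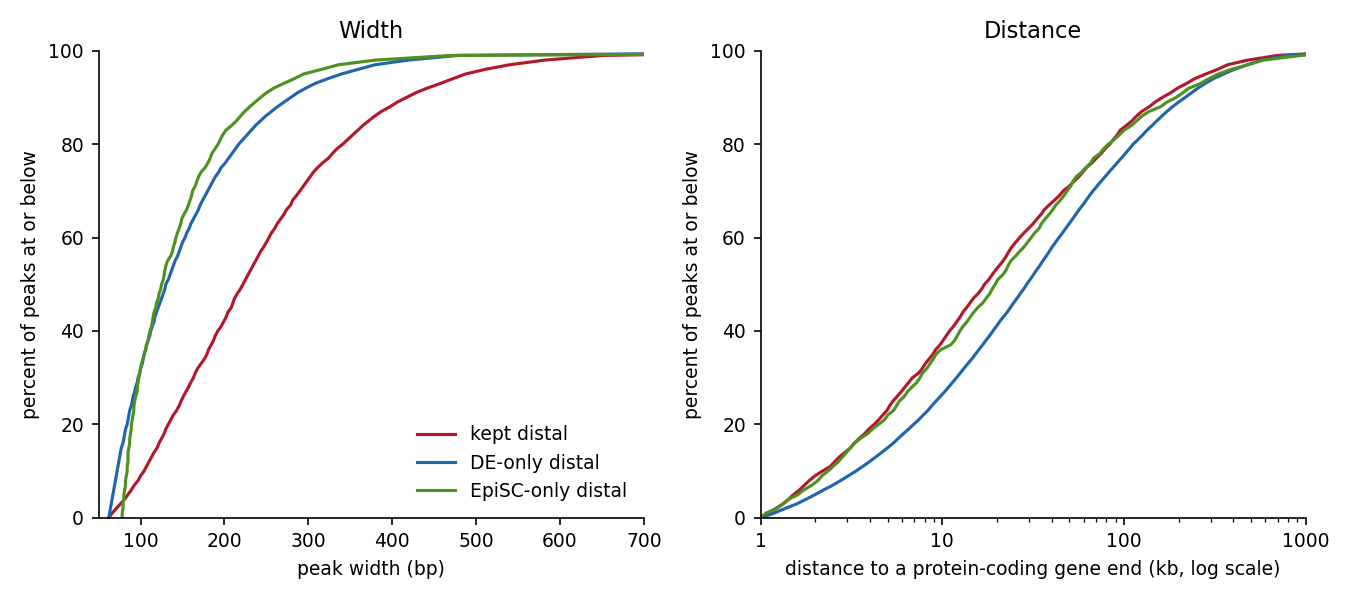
Cumulative percent of peaks (vertical axes) by width in bp (left, widths over 700 bp not drawn) and by distance from the peak centre to the nearest protein-coding gene end in kb on a log scale (right), for kept distal, DE-only distal and EpiSC-only distal peaks, each in the state whose list holds it. The kept distal peaks reach 50% at 222 bp, against 130 and 125 bp for the other classes drawn, and their distance curve runs left of the DE-only curve.

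The rule itself fixes how many peaks were kept. Of the 4133 distal EpiSC peaks, 71.5% overlapped a DE peak, and of the 35552 distal DE peaks, 8.34% overlapped an EpiSC peak. When DE peaks were reduced to the 6319 of greatest width, the number of EpiSC peaks, these shares became 27.9% and 21.8%. The EpiSC share was nearly even across distances, from 72.7% (69.8 to 75.4%) of peaks 1 to 5 kb from a gene end to 70.6% (67.0 to 73.9%) of those beyond 100 kb. The DE share ran from 12.4% (11.5 to 13.3%) at 1 to 5 kb to 6.30% (5.78 to 6.86%) beyond 100 kb. Within the kept distal peaks, those far from gene ends were the wider ones. The median DE width was 201.5 bp (192 to 210 bp) for the 690 members 1 to 5 kb from a gene end. For the 489 members beyond 100 kb it was 263 bp (251 to 279 bp). The EpiSC medians were 141 bp (134 to 149 bp) and 166 bp (155 to 174 bp). The farthest members lay 2137669 bp (Gm20281), 1835725 bp (Gm22891) and 1811633 bp (Gm24937) from any protein-coding gene end, and the first of these lies on an IgG peak.

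Gene names below are the nearest genes in the authors' deposited table, which named 2498 genes for kept distal peaks, 12.8% of the 19553 genes named for any DE peak. For 1489 members (50.2%) that gene also had the nearest protein-coding gene end in RefSeq, and for 1477 it was another gene. With each peak given to the nearest protein-coding gene end instead, the count of kept distal peaks moved by over 1.5 times for 34 of the 91 genes chosen for naming. It moved as far for 44 of them among the 6319 widest DE peaks, for 24 with a distance limit of 5 kb and for 13 with the authors' gene accepted only within 50 kb. Most (2143) had 1 such peak, 355 had at least 2, 80 at least 3 and 8 at least 5. Of the 4271 genes with 3 or more distal DE peaks, 27.9% had a kept one, which is the closer background for the large developmental loci below. Otx2 itself had 2 DE peaks in the table, both DE-only, and no kept distal peak.

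The genes with most kept distal peaks were Gse1 and the noncoding Gm29417, with 6 each. For all 6 Gm29417 peaks the nearest protein-coding gene end is that of Cxxc5. Gse1, which encodes a co-repressor complex protein, had 29 distal DE peaks in all. The 6 kept ones lay inside the gene, 72.2, 78.7, 94.8, 98.7, 106.5 and 306.6 kb from its start. Their DE widths were 166, 238, 240, 231, 149 and 132 bp, and their EpiSC widths 97, 250, 80, 126, 228 and 93 bp, so 4 were wider in DE and 2 in EpiSC. Jarid2, a cofactor of Polycomb repressive complex 2, had 5 of 17 distal DE peaks kept. They lay 79.8, 18.7 and 2.1 kb upstream and 24.9 and 138.8 kb inside the gene, and the last one, 90 bp wide in DE, lies on an IgG peak.

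Sp1, a zinc-finger transcription factor gene, kept 5 of 8 distal DE peaks within 6240 bp, all upstream, 6.6 to 12.6 kb from the gene. The DE widths were 142, 171, 131, 240 and 334 bp, and 4 of the 5 shared EpiSC intervals of 314 and 616 bp in pairs. The 5 DE peaks thus stand for 3 EpiSC peaks. Ptma, which encodes prothymosin alpha, kept 5 of 8, of which the widest had 509 bp in DE against 495 bp in EpiSC, 1.4 kb downstream. Sipa1l2 kept 5 of 10, Gm12411 5 of 7 and 1700108J01Rik 5 of 10. The nearest protein-coding gene end is that of Shb for the Gm12411 peaks and of Clybl for the 1700108J01Rik peaks.

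**Figure D3:**
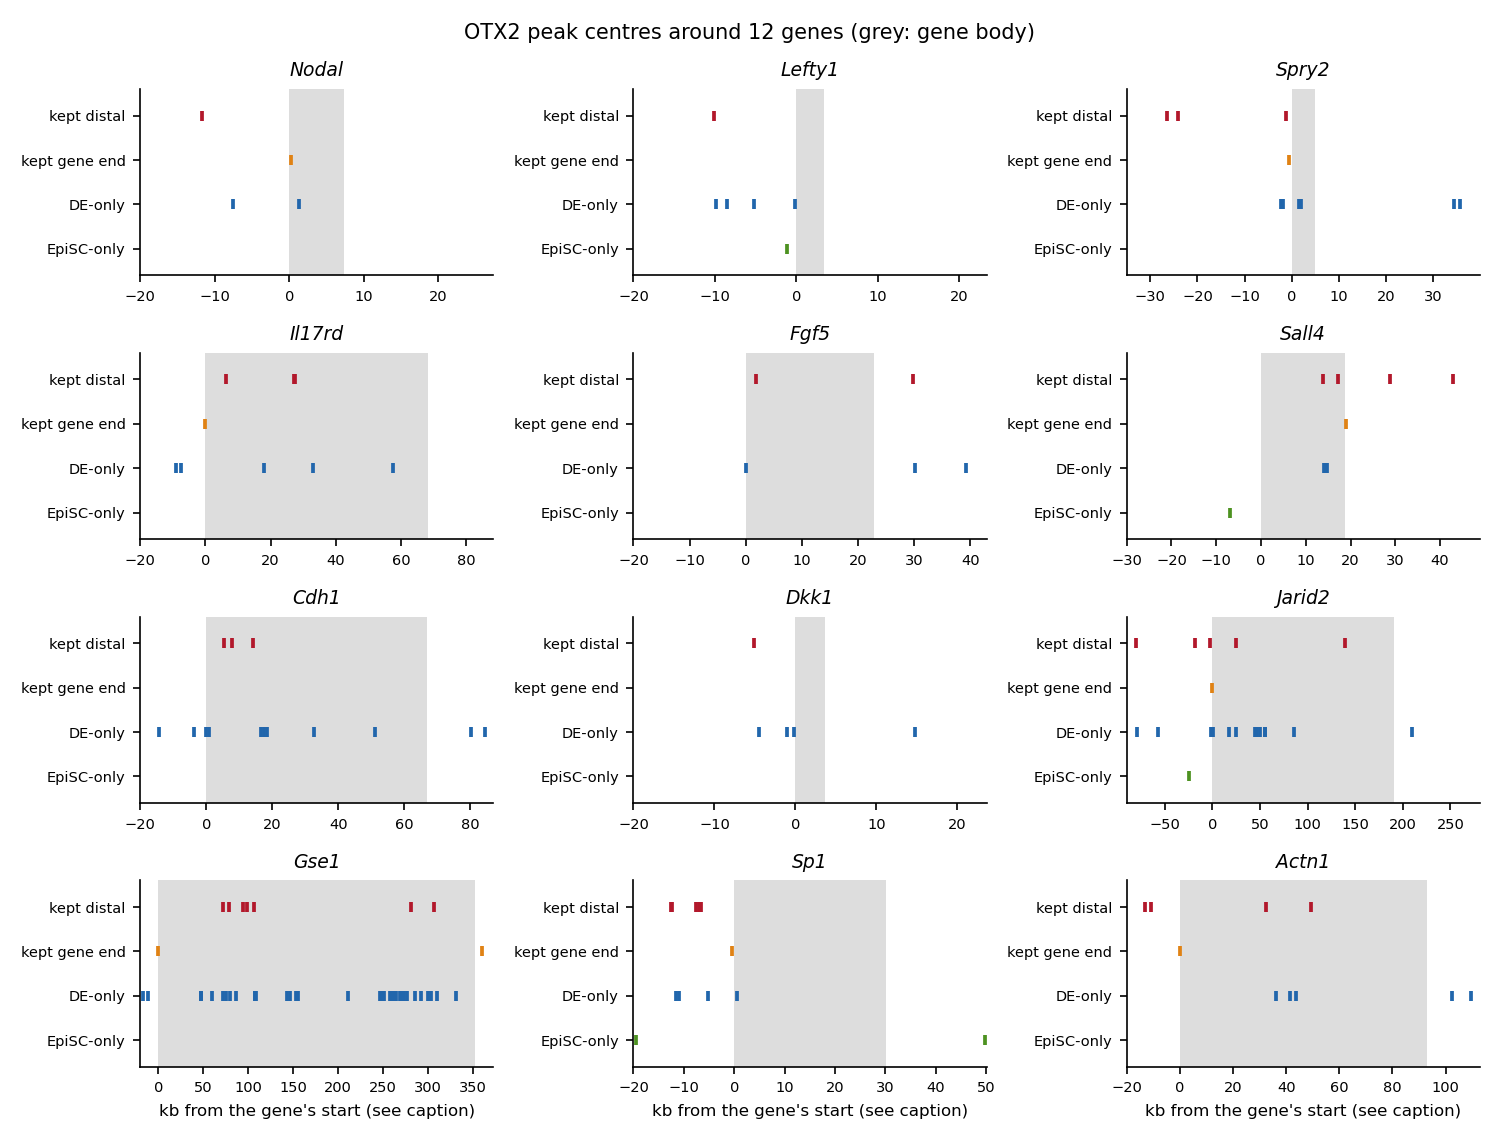
Peak centres around 12 of the genes named in the text, in kb from the gene's start on its strand (from its lower coordinate for Lefty1, Sall4 and Cdh1), with the gene body in grey. Rows give kept distal peaks, kept peaks at gene ends, DE-only and EpiSC-only peaks by position, whatever gene the table names; Gse1 has 6 named and 7 drawn kept distal peaks, among 36 DE-only ones.

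In the FGF pathway, kept distal peaks lay at ligand genes and at feedback inhibitor genes. Of the 26 genes of this list named in the table, 13 had at least 1, with 20 kept distal peaks among 115 distal DE peaks (17.4%, against 8.34% of all distal DE peaks). This share was not particular to the FGF list. It was 17.9% in the primitive streak, 15.7% in the Nodal, 15.6% in the ribosomal protein and 14.9% in the pluripotency list. The primed epiblast list had 12 of 63 kept. Chromatin had 12.7%, SOX 10.9%, neural 10.5% and WNT 9.48%. Below 8.34% were the BMP (8.24%), retinoic acid (8.11%), anterior (7.79%), adhesion (5.69%), extraembryonic (2.27%) and mesoderm (0%) lists. Among ligands, Fgf5, a marker of primed epiblast, kept 2 of 3. One peak was 1.8 kb inside the gene with widths of 428 bp in DE against 458 bp in EpiSC, and one 6.8 kb downstream with 281 and 199 bp. Fgf8 kept 2 of 7, both outside the gene at 2.6 and 3 kb, with DE widths of 344 and 335 bp and EpiSC widths of 134 and 252 bp.

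The feedback inhibitors Spry2 and Il17rd kept 3 peaks each, of 9 and 8. The Spry2 peaks lay 1.1, 24.2 and 26.4 kb upstream and were 164, 183 and 83 bp wide in DE and 128, 99 and 251 bp in EpiSC. The last is the 1 bp overlap named above. The Il17rd peaks lay 6.2, 27.3 and 27.5 kb inside the gene, with DE widths of 362, 139 and 201 bp and EpiSC widths of 326, 79 and 97 bp. Etv5, an ETS factor gene downstream of FGF, kept 2 of 5, inside the gene, with 188 and 226 bp in DE and 331 and 224 bp in EpiSC.

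Genes of the Nodal pathway, whose receptors Activin A also engages, had kept distal peaks at 7 of 19. The ligand Nodal had 1, 11.7 kb upstream, nearly equal in both states with 510 bp in DE and 522 bp in EpiSC. Its antagonists Lefty2 and Lefty1 had 1 each, at 4.3 and 10.2 kb from the gene, with DE widths of 486 and 368 bp and EpiSC widths of 392 and 429 bp. The co-receptor gene Tdgf1 had 2, 1.4 and 2 kb upstream, of 389 and 325 bp in DE and 543 and 239 bp in EpiSC. These 5 peaks all exceeded the members' median width in both states. The antagonist Cer1 had a peak of 224 bp in DE and 99 bp in EpiSC, 1.1 kb upstream.

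Among 16 primed epiblast genes named in the table, 9 had a kept distal peak (12 of 63 distal DE peaks), and among 14 core and naive pluripotency genes, 3 had one. Sall4, a zinc-finger factor of pluripotent cells, kept 4 of 8: 2 in the gene with DE widths of 251 and 92 bp (EpiSC 151 and 171 bp) and 2 outside it, at 10 and 24.1 kb, with 120 and 453 bp (EpiSC 321 and 191 bp). Nanog kept 1 of 2, an 85 bp peak against 103 bp in EpiSC, 1.4 kb downstream. Lef1, a WNT effector, kept 1 of 3, 25.4 kb upstream (342 bp in DE, 267 bp in EpiSC), and Myc 1 of 5 (274 and 132 bp).

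Chromatin and co-repressor genes had kept distal peaks at 10 of 19, with 21 of 165 distal DE peaks, of which Gse1 and Jarid2 hold 11. Kat6b, a histone acetyltransferase gene, kept 2 at 1.4 and 2.1 kb inside the gene (DE widths of 567 and 227 bp, EpiSC widths of 515 and 109 bp). Tle3, a Groucho co-repressor gene, kept 2 of 16. In the WNT list 11 of 35 genes had one kept distal peak each. The antagonist Dkk1 had a peak 5.1 kb upstream of 480 bp in DE and 111 bp in EpiSC.

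Of 32 endoderm genes, 7 had a kept distal peak, with 10 of 113 distal DE peaks (8.85%, against 8.34% of all distal DE peaks). Cdh1, the E-cadherin gene, kept 3 of 8, all inside the gene, with DE widths of 209, 112 and 198 bp and EpiSC widths of 87, 108 and 149 bp. Cyp26a1, which encodes a retinoic-acid-degrading enzyme, kept 2 of 11, one of them 154.5 kb from the gene and nearer to Myof. The T-box gene Eomes kept 1 of 3 (200 bp in DE, 149 bp in EpiSC, 2.3 kb downstream) and the homeobox gene Gsc 1 of 3 (407 and 204 bp, 4.1 kb downstream). Of the lists for other cell types, mesoderm had 0 of 11 genes, extraembryonic tissue 1 of 17 (Eomes) and neural ectoderm 3 of 18. In all, 75 genes of the 17 lists had a kept distal peak, and genes can stand on more than 1 list.

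**Figure D4:**
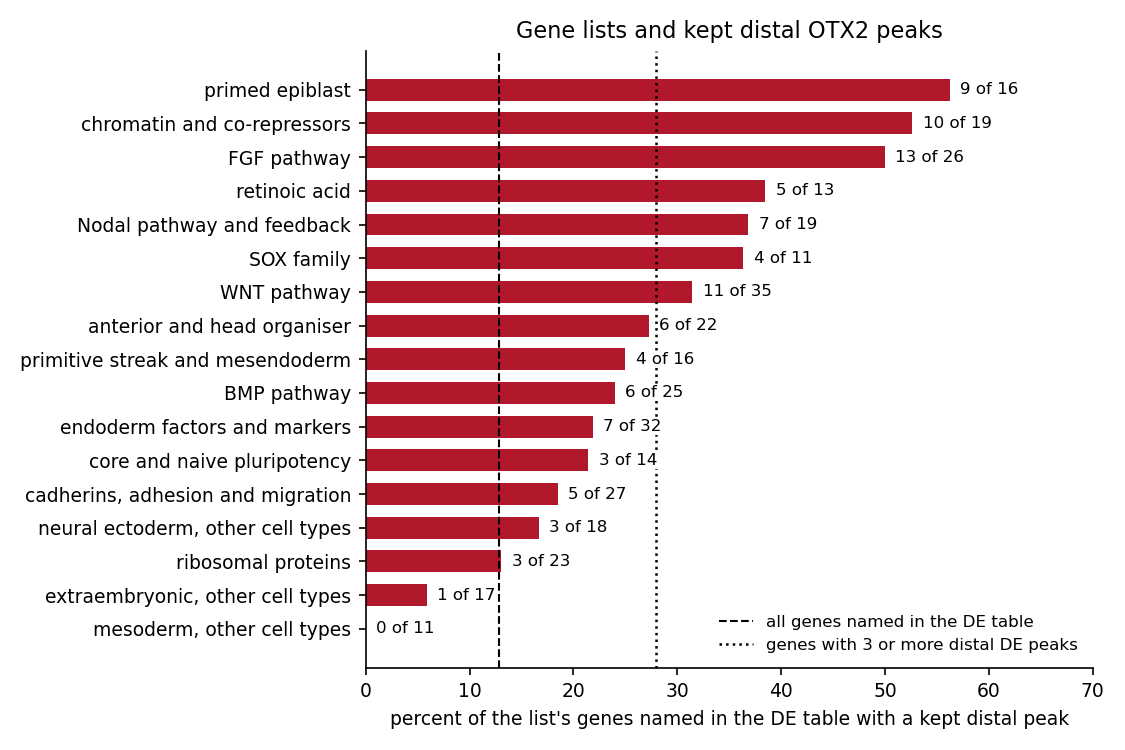
Percent of each list's genes named in the DE table that have at least 1 kept distal peak (bars, with the counts), for 17 lists. The dashed line marks all named genes (12.8%) and the dotted line genes with 3 or more distal DE peaks (27.9%); primed epiblast, chromatin and FGF lists reach 50% or more, mesoderm 0.

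Lists differ in how many peaks their genes have, and the bars cover all named genes of a list. Only list genes with 3 or more distal DE peaks are therefore set against the dotted line. This limit does not make peak numbers equal: chromatin list genes had a median of 6 DE peaks, with 29 distal ones at Gse1 and 28 at Aff1. Of the 18 FGF genes with 3 or more distal DE peaks, 10 had a kept one, as had 10 of 16 chromatin genes, 7 of 10 primed epiblast genes and 6 of 10 Nodal genes. The other large lists were near the dotted line, with 4 of 15 endoderm, 5 of 16 WNT, 4 of 14 BMP, 4 of 14 adhesion and 3 of 12 anterior genes. Of the lists with fewer than 10 such genes, primitive streak had 3 of 4, SOX 4 of 6, neural 2 of 4, pluripotency 2 of 5, retinoic acid 3 of 8, ribosomal proteins 1 of 3, extraembryonic 1 of 7 and mesoderm 0 of 5. Among the 6319 widest DE peaks, the genes with a kept distal peak numbered 7 in the FGF list in place of 13, 5 in the chromatin list in place of 10, 5 in the primed epiblast list in place of 9 and 4 in the endoderm list in place of 7. The BMP list had 3 in place of 6, adhesion 3 in place of 5, SOX 2 in place of 4, neural 1 in place of 3 and extraembryonic 0 in place of 1. With each peak given to the nearest protein-coding gene end in place of the authors' gene, 17 WNT, 11 endoderm, 9 adhesion, 8 pluripotency, 8 SOX, 8 neural and 3 extraembryonic genes had one, against 11, 7, 5, 3, 4, 3 and 1. With a distance limit of 5 kb, Nodal genes fell to 3, pluripotency genes to 1, endoderm genes to 3, BMP genes to 3, anterior genes to 2, extraembryonic genes to 0, and primitive streak genes from 4 to 0: the peaks of Eomes, Gsc, Fgf8 and Sp5 lie 2336 to 4059 bp from a gene end.

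The authors' deposited table marks some genes as down or up, and the contrast behind these marks is not given in the sources used here. Of the kept distal peaks, 125 had a gene marked down in the authors' deposited table (4.21%, 3.55 to 5.00%), against 3.44% of all DE peaks, 3.56% (3.37 to 3.77%) of DE-only distal peaks and 1.53% (0.968 to 2.40%) of EpiSC-only distal peaks. Genes marked up accounted for 88 (2.97%, 2.41 to 3.64%), against 3.27% of all DE peaks and 3.32% (3.13 to 3.52%) of DE-only distal peaks. Neither share's interval excludes the value for DE-only distal peaks. Among the widest 6319 DE peaks, the shares marked down were 5.74% of kept and 5.53% of DE-only distal peaks.

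**Figure D5:**
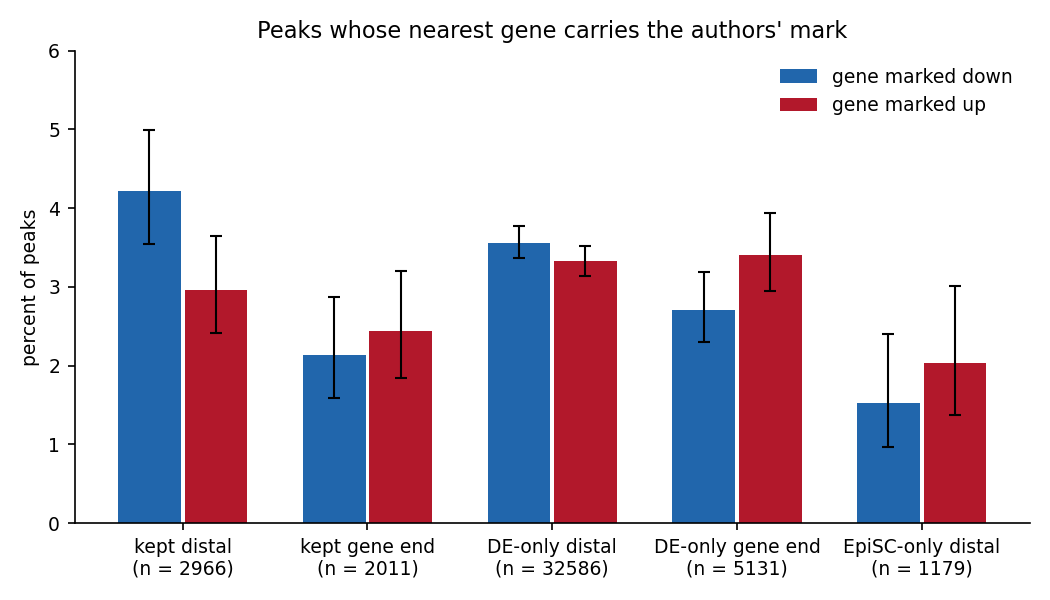
Percent of peaks whose nearest gene is marked down or up in the authors' deposited table (bars, with 95% Wilson intervals), in 5 classes of peak with their numbers below. Kept distal peaks have 4.21% down and 2.97% up; the EpiSC-only distal peaks have 1.53% and 2.04%.

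By gene, 86 of the 2498 genes with a kept distal peak were marked down (3.44%, 2.80 to 4.23%) and 67 marked up (2.68%, 2.12 to 3.39%) in the authors' deposited table, against 1.71% and 1.85% of all 19553 named genes. Genes with a kept distal peak have more peaks in general (median 3 DE peaks, against 1 over all named genes). Among genes with 3 or more distal DE peaks, 5.87% of the 1193 with a kept one were marked down (4.67 to 7.35%) and 3.74% of the 3078 without (3.12 to 4.47%), while 4.36% (3.34 to 5.67%) and 3.41% (2.83 to 4.11%) were marked up. The down intervals do not overlap and the up intervals do. No test was made, and neighbouring peaks and genes are not independent.

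Marked down in the authors' deposited table with 4 kept distal peaks each were Actn1, Car4 and Sall4. Actn1, which encodes an actin cross-linking protein, kept 4 of 11, at 10.7 and 13.1 kb upstream and 32.4 and 49.3 kb inside the gene, with DE widths of 520, 255, 249 and 355 bp and EpiSC widths of 238, 188, 300 and 89 bp. Car4, a carbonic anhydrase gene, kept 4 of 7, of which 3 lay 12.5 to 13.8 kb upstream. Their DE widths were 548, 62 and 485 bp and their EpiSC widths 105, 187 and 131 bp. Among the genes marked down with 3 were Cdh1, Bcl2l1, an anti-apoptotic gene, and 2410080I02Rik. Those with 2 included Fgf5, Etv5 and Id3, a BMP target gene. Marked up were Nos1ap with 4 of 9, all inside the gene, and Ank3, Sdk1, Slit1 and Snd1 with 3 each. Those marked up with 2 included Fgf8 and Cyp26a1. The Snd1 peaks lie inside Snd1, but the nearest protein-coding gene end is that of Lrrc4.

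Most kept distal peaks had no other kept distal peak nearby. Another kept distal peak lay within 12.5 kb of 578 (19.5%, 18.1 to 21.0%), forming 263 groups, of which 39 held at least 3 and 3 held at least 5. Besides the chromosome 17 locus and Sp1, the third was a group of 5 over 18345 bp at Nr1d1, a nuclear receptor gene of the circadian clock, and Msl1. A group of 4 within 7756 bp was named for Mir148a, 91.2 to 98.7 kb from that gene, with DE widths of 226, 133, 293 and 145 bp and EpiSC widths of 197, 132, 264 and 79 bp and with no new peak within 10 kb. A DE-only distal peak lay within 10 kb of 1409 kept distal peaks (47.5%, 45.7 to 49.3%), and another DE-only distal peak within 10 kb of 45.2% (44.7 to 45.7%) of the DE-only distal peaks themselves. The share of kept distal peaks with a new peak was 34.6% within 5 kb and 82.5% within 50 kb, and 11.3% within 10 kb among the 6319 widest DE peaks. New peaks near kept ones numbered 2002, or 6.14% of all DE-only distal peaks, and 220 kept distal peaks had 3 or more.

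Background was compared in the IgG lists of tagged EpiSCs, which held 202, 149 and 200 peaks in replicates 1, 2 and 3, and in the parental HA list with 14 peaks. All 149 intervals of replicate 2 are also in the list of replicate 3. Overlap with any of the lists was counted, so replicate 2 adds nothing to replicate 3. An IgG peak was overlapped by 18 kept distal peaks (0.607%, 0.384 to 0.957%), by 18 in replicate 1 and 13 in replicates 2 and 3, and a parental peak by 0 of 2966. Of all DE peaks on chromosomes 1 to 19 and X, 21 overlapped an IgG peak (0.0492%) and 0 a parental peak. The IgG lists come from EpiSCs, and overlap with an EpiSC peak is what the members were chosen by, so nothing is read from the lower share among all DE peaks. In the EpiSC list the share was 0.651% of all peaks and 1.87% (1.24 to 2.81%) of EpiSC-only distal peaks. The 18 were wider in EpiSC than in DE without exception, as were 725 of the other 2948 (24.6%), and 14 of them were narrower in DE than the members' median. They include peaks named for Jarid2, Gm26917, AY036118, Gphn, Cdk8 and Gm20281. IgG lists from the endoderm samples were not analysed here.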

How the data were processed

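CUT&RUN peak lists were analysed as the authors deposited them. Bowtie2 2.3.5.1, SAMtools 1.14, Picard 2.26.10, bedtools 2.30 and MACS2 2.2.6 are named, without roles, with build mm10, per the submitters' processing notes. Peaks within 50 bp were merged, per the file names. Each state's merged list holds the same intervals as the authors' deposited table, which the labels name for both HA samples, and was read as pooled. The merged EpiSC list is itself named for replicate 1 alone; the labels of EpiSC HA replicate 2 and of the tagged DE IgG sample name the DE list, which was read as slips. The lists do not show which samples were pooled. The pooled lists give positions only, so read depth is unknown, and intervals cover counting error only.

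Overlaps and distances between peak centres and gene ends were computed in Python 3.11.15 (pandas 2.3.3, numpy 2.4.6, scipy 1.17.1), and the interval functions were tested on simulated data. The gene table was RefSeq GRCm38.p6 (49997 genes with a position, 21900 protein-coding). Of the members, 78.7% have a named gene in that table, and 3 have a number in place of a name. Shares carry 95% Wilson intervals and medians order-statistic intervals. Members and lists were chosen with earlier results of these data known. Genes were named by a rule: Otx2; the 15 with most members; up to 5 per list; those of the 10 widest peaks per state; 2 on each side of the 1 kb limit; and up to 6 per mark. No genome was used, so the planned TAATCC share over all members was not computed; start windows, chosen after seeing the data, stand in for it.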

Additional observations from a re-analysis of the deposited data

How the results depend on the processing

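No paired analysis was possible because each state has only 1 list, read as pooled over its HA samples. Limiting DE to its 6319 widest peaks moved most: 1133 kept distal peaks, 27.9% of distal EpiSC and 21.8% of distal DE peaks kept, median widths of 346 bp in DE and 189 bp in EpiSC, 92.4% wider in DE, a median distance of 26860 bp, 1034 genes, 44 listed genes, 8.65% with another member and 11.3% with a new peak nearby, 9.0% with a marked gene (5.74% down) and 0.265% on background. This alternative selects on width, and under it DE-only distal peaks had a median width of 319 bp and a median distance of 36890.5 bp, so the differences in width and distance shrank and kept their direction. With a 5 kb limit, 7.59% of distal DE peaks were kept, and the medians were 230 bp and 29211.5 bp; 45.7% lay inside a gene, 17.0% had another member and 45.0% a new peak nearby. With 50% overlap, 69.8% of distal EpiSC peaks were kept. With both lists at 78 bp or wider, these shares were 69.3% (EpiSC) and 9.38% (DE), 76.9% were wider in DE, and 17.9% and 43.3% had neighbours. With ends of every gene type, 17.9% had another member. Neighbour distances of 5 and 50 kb gave 14.2% and 37.1% with another member, and 34.6% and 82.5% with a new peak. Without peaks on background the background share is 0% by construction. Leaving out IgG replicates singly gave 0.438 to 0.607%, where leaving out replicate 2 could change nothing because replicate 3 holds all its intervals. The cause of the other moves was not tested. Of the 114 values recomputed for the main results, 82 stayed within their interval or 1.5 times their count. Depth limits every value, since an absent EpiSC peak cannot be told apart from one below the caller's limit.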
